A study of Danio rerio with 12 samples.

Results

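The genes described here are proneural and newborn neuron genes, from the basic helix-loop-helix (bHLH) factors that start neuronal fate to the cytoskeletal and adhesion proteins of growing axons. A list of 41 zebrafish symbols was matched, ignoring case, to the genes of the deposited count table. Of these, 17 symbols matched exactly, 21 matched after the paralog letter was dropped, and 3 (dcx, st18 and dla) had no match and were not analysed here. The matches gave 41 genes out of 31953 in the table, because a name without its letter takes every copy. In all, 22 of the 41 share their symbol with another gene, so copies are told apart here by Ensembl identifier or chromosome. Which copy is "a" and which is "b" cannot be read from the names used. Symbols are spelled as the name table gives them, many of them in capitals.

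RNA was sequenced from sorted brain cells of adult zebrafish aged 6 months. All fish carried the transgene Tg(her4.1:EGFP), in which the her4.1 promoter drives EGFP, and all received an injection into the brain ventricle, either of amyloid-β42 (AB42, TR-Aβ42 in the protocol) or of the control peptide called CPP. Brains were dissected 48 hours after injection. Each of the 4 groups has 3 libraries: GFP-positive cells after AB42, GFP-positive cells after CPP, GFP-negative cells after AB42 and GFP-negative cells after CPP. The GFP-negative fraction is every sorted cell without the reporter, so it mixes cell types. GFP-positive libraries also held reads of neuron, oligodendrocyte and microglia markers, as given below. The sources used here do not give how many brains went into a library or whether each library came from its own fish. The p-values therefore measure only the spread between libraries, which may be technical.

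In the vertebrate brain, proneural bHLH factors such as the neurogenins act in dividing progenitors and commit their daughters to neuronal fate, while Notch signalling and its Hes/her targets, including her4.1, hold progenitors back. NeuroD-family factors, T-box factors and Ebf factors follow in daughters that leave the cycle, and RNA-binding Elavl proteins, stathmins and tubulins mark young and growing neurons. In the adult zebrafish brain, her4.1-expressing radial glia are the main progenitors of new neurons.

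Levels are counts scaled to a common library size (CPM, with TMM factors) unless stated, and chromosome positions are on GRCz10. Errors of levels are SD over the 3 libraries of a group, and errors of log2 differences are SE. A gene is said to be higher, lower, risen or fallen only where edgeR's quasi-likelihood test, fitted on all 20237 genes that passed the count filter, gave an adjusted p under 0.05 for that comparison. Of the 41 genes, 34 passed the filter. The other 7 had too few reads: neurog3 had 7 reads over all 12 libraries, ATOH1 19, SOX4 ENSDARG00000098834 81, SOX11 ENSDARG00000095743 2, and atoh1b, sox4a and gap43 were listed at 0. gap43 lies on the sequence KN150239.1 and atoh1b on KN150642.1, not on a numbered chromosome. A count of 0 there does not show that these genes were not expressed, and the reason for it was not tested. Some annotated exons overlap. Of the exon bases of sox4a, 80.6% lie inside SOX4 ENSDARG00000004588 and 19.4% inside another same-strand gene. ATOH1 shares 54.4% of its exon bases with a same-strand gene listed at 0 in every library. SOX11 ENSDARG00000095743 shares 64.8% with such a gene and 68.3% with an opposite-strand gene that had 697 reads. For SOX11 ENSDARG00000077811, 53% lie inside a same-strand gene listed at 0 in every library. Low counts of sox4a, ATOH1 and SOX11 ENSDARG00000095743 therefore do not show low expression. Reads of such genes cannot be told apart without the counting settings, which the sources used here do not give.

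Library totals ran from 10419435 to 13750673 reads in AB42 GFP-positive cells, 12996462 to 14843229 in CPP GFP-positive cells, 12777104 to 15027301 in AB42 GFP-negative cells and 9262838 to 15584769 in CPP GFP-negative cells. A floor of 3 reads corresponds to 0.164 to 0.326 CPM, and it covers counting error only. The largest principal component carried 83% of the variance. The sort labels matched the level of the fish's own her4.1, the gene whose promoter drives the reporter. her4.1 averaged 1892 ± 120.3 CPM in AB42 GFP-positive and 2277 ± 176 CPM in CPP GFP-positive libraries. It averaged 28.9 ± 1.03 CPM in AB42 GFP-negative and 32.3 ± 1.49 CPM in CPP GFP-negative libraries (SD, n = 3 each). EGFP itself was not examined. Summed over the 41 genes, the level was 2851 to 3088 CPM in AB42 GFP-positive libraries and 3242 to 3567 CPM in CPP GFP-positive libraries. In GFP-negative cells the sum was 6732 to 6919 CPM after AB42 and 7601 to 8108 CPM after CPP, and in neither fraction did the injections overlap. A large part of these sums was the STMN1 copy on chromosome 16, which averaged 1422 CPM in AB42 GFP-positive and 1754 CPM in CPP GFP-positive libraries. It averaged 3884 CPM in AB42 GFP-negative and 4043 CPM in CPP GFP-negative libraries, so the sums do not describe the genes evenly.

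The first comparison asked where these genes are expressed, in her4.1 reporter cells or in the remaining cells. The early proneural factors and HES6 were higher in GFP-positive cells. The differentiation bHLH factors and the RNA-binding members were mostly higher in GFP-negative cells. There, NEUROD1, NEUROD2, EOMES, ELAVL4, STMN2 and RBFOX3 transcripts were several-fold more abundant. These levels do not tell newborn neurons from mature ones. After AB42, 12 of the 34 tested genes were higher in GFP-positive cells and 16 were lower, against 36% and 37.7% of all genes tested. After CPP, 13 were higher and 18 lower, against 37.1% and 35.9% of all genes. The share of members that was higher (35.3% after AB42, 38.2% after CPP) was near that of all genes, while the share that was lower was 47.1% after AB42 and 52.9% after CPP. The median log2 difference of the 34 was -0.31 after AB42 and -0.63 after CPP, against -0.01 and 0.01 over all genes. This direction turned among the 14 tested members whose symbols matched exactly, of which 8 were higher and 4 lower after AB42 and 8 higher and 5 lower after CPP, with medians of 0.53 and 0.69. With library totals in place of TMM, all genes split 5452 higher and 9280 lower after AB42, in place of 7286 and 7622, and 4630 and 10673 after CPP, in place of 7517 and 7265. The median of all genes then moved to -0.26 after AB42 and -0.47 after CPP, and 11 members were higher and 20 lower after AB42, 9 and 21 after CPP. Beside this, all 30 tested mature neuron markers were lower and 19 of 21 radial glia markers were higher in GFP-positive cells after each injection, and their part in the members' differences was not tested.

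All 4 tested proneural bHLH factors were higher in GFP-positive cells after either injection, against 36% of all genes after AB42 and 37.1% after CPP. PTF1A (chromosome 2, 29727324 to 29728228), a bHLH factor of GABAergic neuron specification in the cerebellum, spinal cord and retina, had the largest ratio between the fractions. It had 16.7, 13.8 and 16.3 CPM in AB42 GFP-positive libraries and 26.7, 24.5 and 33.5 CPM in CPP GFP-positive libraries. In GFP-negative cells it was near the floor, with 0.287, 0.365 and 0.207 CPM (13 reads in all) after AB42 and 0.181, 0.206 and 0.109 CPM (7 reads in all) after CPP. The ratio of reads per scaled library was 53.5 after AB42 (95% exact interval 31 to 101) and 175 after CPP (84.7 to 437), intervals that cover counting error only. neurog1 (chromosome 14, 26405226 to 26406725), the neurogenin of sensory and forebrain neurons, lay near 1.05 CPM in CPP GFP-positive and 0.373 CPM in CPP GFP-negative libraries, and its 2.84-fold difference after CPP (adjusted p = 0.00649) had an adjusted p of 0.0749 without CPP GFP-negative replicate 2 and 0.0562 with library totals.

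Among the differentiation bHLH factors, NEUROD4 was the exception, being 4.81-fold higher in GFP-positive cells after CPP (adjusted p = 2.16e-07) at a low level of 3.505 ± 0.578 CPM. The other 5 (NEUROD1, NEUROD2, both NEUROD6 copies and nhlh2) were lower in GFP-positive cells after CPP, and all of them but nhlh2 after AB42. Of all genes tested, 35.9% were lower in GFP-positive cells after CPP and 37.7% after AB42. NEUROD1 (chromosome 9, 44489979 to 44493329) was 9.4-fold lower in GFP-positive cells after AB42 and 10.3-fold lower after CPP. The EOMES copy on chromosome 16 was 12-fold lower after CPP, and NEUROD2 8.02-fold lower (adjusted p = 6.44e-19 and 2.16e-20). All 4 RNA-binding members were lower in GFP-positive cells: after CPP, ELAVL4 by 5.96-fold, ELAVL3 by 3.03-fold and the RBFOX3 copy on chromosome 12 by 6.96-fold (adjusted p = 1.12e-29, 2.55e-24 and 1.43e-25).

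**Figure D1:**
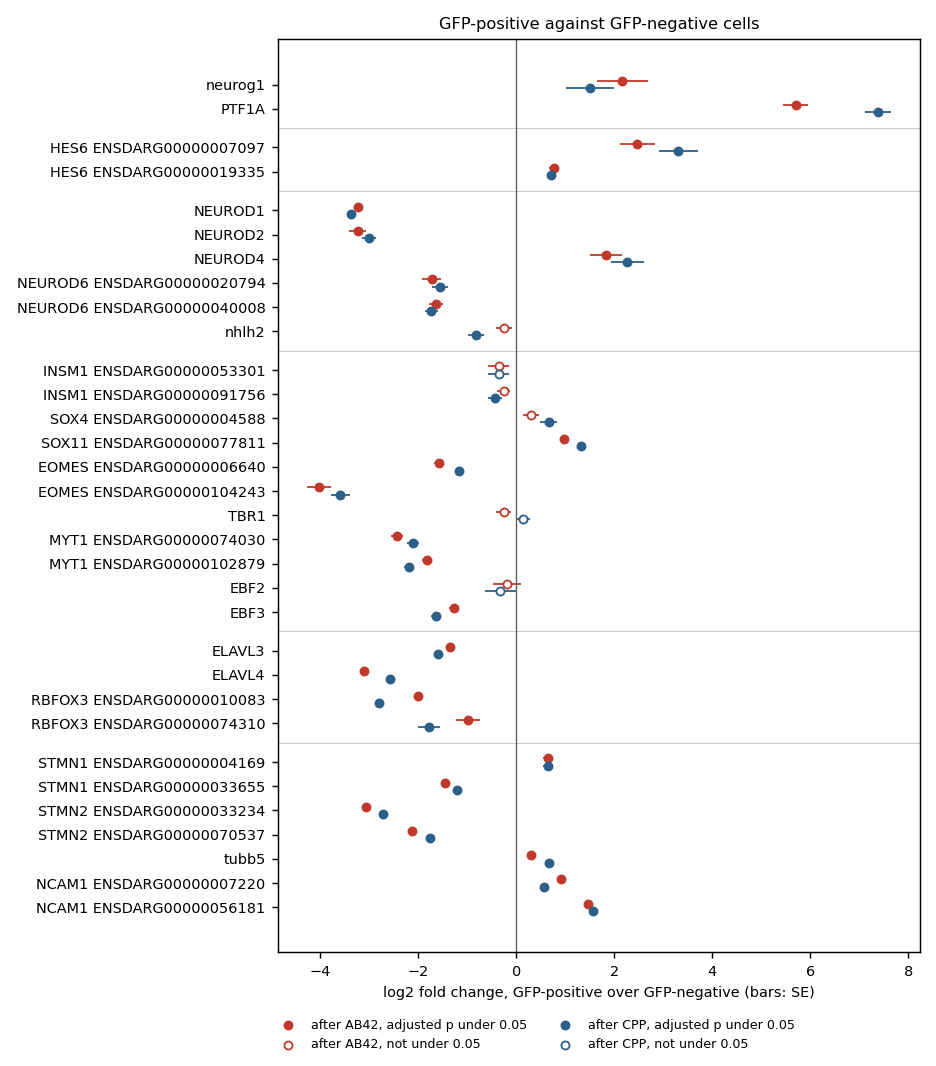
Log2 difference of GFP-positive over GFP-negative cells for 32 of the 34 tested genes, grouped by role, after AB42 (red) and after CPP (blue). Bars are SE and filled points have an adjusted p under 0.05. Both proneural bHLH factors shown lie to the right of 0, and all 4 RNA-binding members lie to the left.

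The cytoskeletal and adhesion genes split by copy. The STMN1 copy on chromosome 19 (ENSDARG00000004169) was 1.57-fold higher in GFP-positive cells after CPP, while the copy on chromosome 16 (ENSDARG00000033655) was 2.3-fold lower (adjusted p = 1.86e-06 and 3.52e-22). With library totals the call of the chromosome 19 copy was lost (log2 0.16; adjusted p = 0.158). STMN1 encodes stathmin, which binds tubulin and destabilises microtubules. Both STMN2 copies, whose product acts in axon growth, were lower in GFP-positive cells, by 6.6-fold on chromosome 16 and 3.37-fold on chromosome 19 after CPP. tubb5, a β-tubulin, was 1.59-fold higher in the GFP-positive fraction after CPP. The NCAM1 copies, which encode neural cell adhesion molecules, were 1.49-fold (chromosome 15) and 2.98-fold (chromosome 21) higher, and the call of the chromosome 15 copy was lost with library totals (log2 0.09; adjusted p = 0.325). Both HES6 copies, a Hes-family factor known in mouse and Xenopus to oppose Hes1 and promote neuronal differentiation, were higher in GFP-positive cells, by 1.64-fold on chromosome 2 and 9.91-fold on chromosome 15 after CPP.

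Levels per kilobase of annotated exons compare genes only roughly, because read coverage along the genes was not checked. On this scale the chromosome 16 STMN1 copy had the highest level of the 41 genes in every group. It stood at 843 ± 59.9 CPM per kb in AB42 GFP-positive, 1039.9 ± 69.7 in CPP GFP-positive, 2302 ± 20.8 in AB42 GFP-negative and 2396 ± 138 CPM per kb in CPP GFP-negative libraries. In GFP-positive cells tubb5 came next, at 190.4 ± 6.66 CPM per kb after AB42 and 159 ± 6.96 after CPP. In GFP-negative cells NEUROD1 came next, at 238 ± 8.13 CPM per kb after AB42 and 450.3 ± 21.2 after CPP. PTF1A stood at 19.5 ± 2.00 CPM per kb in AB42 GFP-positive and 35.4 ± 5.91 CPM per kb in CPP GFP-positive libraries.

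The second comparison asked how AB42 changed these genes within each fraction. After AB42, the differentiation bHLH factors NEUROD1, NEUROD2 and NEUROD6, the T-box genes EOMES, the Elavl gene ELAVL4, both STMN2 copies and the HES6 copy on chromosome 2 were lower in GFP-positive cells and in GFP-negative cells. A small number of genes were higher in GFP-negative cells, among them SOX11, and STMN1 on chromosome 19 and tubb5 were higher in both fractions. In GFP-positive cells, 2 of the 34 tested genes were higher and 15 lower after AB42, against 6.21% and 12.5% of all genes. In GFP-negative cells, 5 were higher and 17 lower, against 20.9% and 17.3% of all genes. As shares of the 34, 44.1% were lower in GFP-positive and 50% in GFP-negative cells, and 5.88% and 14.7% were higher. The median log2 difference of the 34 was -0.26 in GFP-positive and -0.28 in GFP-negative cells, beside -0.06 and -0.01 over all genes. The tested genes were not matched to others for expression level. Which part of these differences came from fewer cells of a type and which from less RNA per cell cannot be told apart in bulk libraries. Nor can newborn and mature neurons be told apart there.

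The 2 comparisons share no library, but the sources used here do not say whether they share fish. They may therefore not be independent. In both fractions 11 members were lower, which is 73.3% of the 15 lower in GFP-positive and 64.7% of the 17 lower in GFP-negative cells. Over all genes, 1055 were lower in both, or 41.8% and 30.2% of the 2 lists. None of the 34 tested members was called in opposite directions, against 528 of the 20237 genes tested. Only genes called in both fractions can be called in opposite directions. Among members, 2 were higher in both and 11 lower in both. Over all genes, 731 were higher in both and 1055 lower in both, beside the 528 called opposite. Whether this absence sets the members apart was not tested. By library values alone, 4 members had all AB42 GFP-positive libraries above all CPP ones and 16 had all below, against 12.3% and 19.7% of all genes. In GFP-negative cells, 6 were above and 17 below, against 25.2% and 22.9%. With library totals in place of TMM, all genes split 2112 higher and 1769 lower in GFP-positive cells, in place of 1256 and 2523, and 3191 higher and 5463 lower in GFP-negative cells, in place of 4239 and 3494. The median of all genes then moved to 0.04 and -0.14, and 4 members were higher and 13 lower in GFP-positive cells, 4 and 20 in GFP-negative cells.

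**Figure D2:**
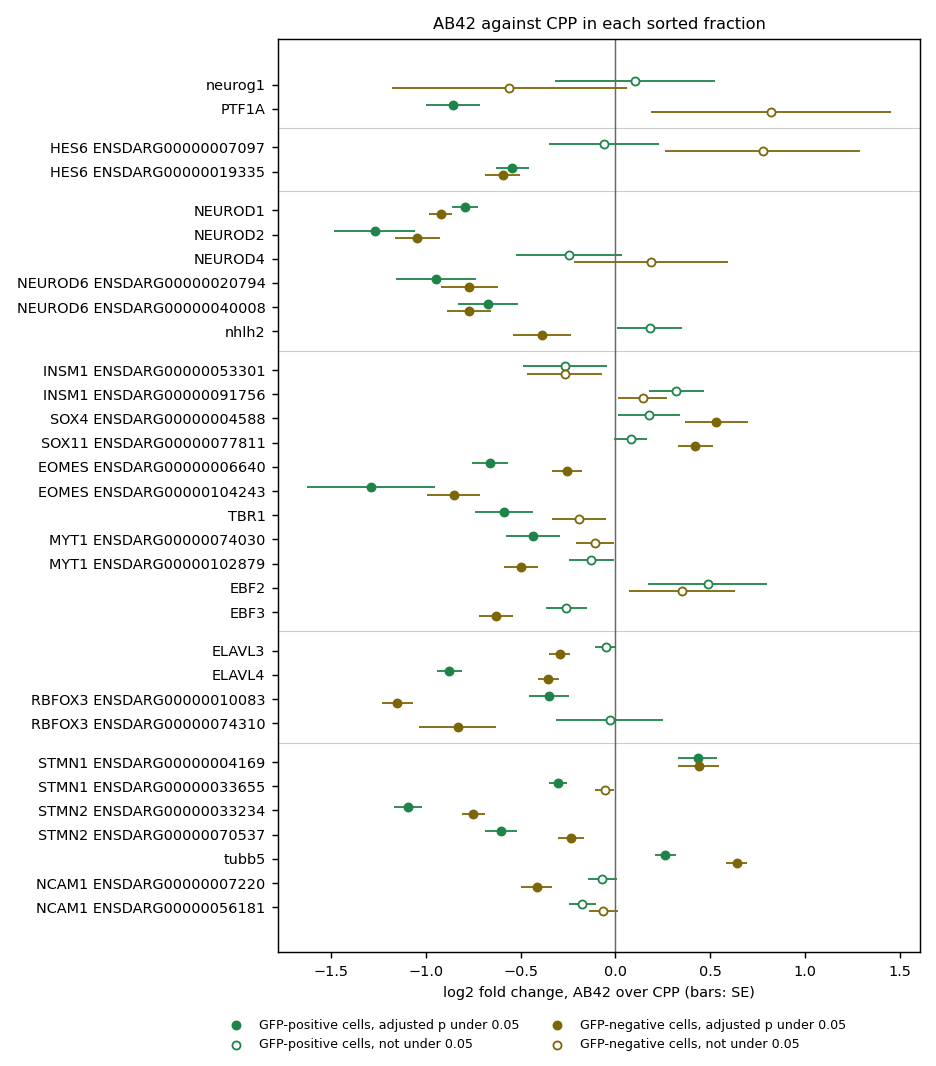
Log2 difference of AB42 over CPP for 32 of the 34 tested genes, grouped by role, in GFP-positive (green) and GFP-negative (brown) cells. Bars are SE and filled points have an adjusted p under 0.05. The 4 lower NeuroD-family members lie left of 0 in both fractions, and tubb5 lies right of 0 in both.

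Among the proneural bHLH factors, PTF1A fell in GFP-positive cells, where it had 16.7, 13.8 and 16.3 CPM after AB42 against 26.7, 24.5 and 33.5 CPM after CPP. All 3 AB42 libraries were below all 3 CPP libraries, and the gene was 1.81-fold lower (log2 difference -0.86 ± 0.14, SE; adjusted p = 1.54e-05). In GFP-negative cells it lay near the floor and no difference was detectable at this depth. neurog1 averaged 1.15 ± 0.323 CPM in AB42 GFP-positive and 1.05 ± 0.213 CPM in CPP GFP-positive libraries (adjusted p = 0.907).

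In GFP-positive cells 4 of the 6 differentiation bHLH factors were lower after AB42, against 12.5% of all genes. In GFP-negative cells 5 of the 6 were lower, against 17.3% of all genes. None of them was higher in either fraction, against 6.21% and 20.9% of all genes. NEUROD1, which drives the differentiation and survival of new neurons, had 53.7, 61.9 and 68.7 CPM in AB42 GFP-positive libraries, against 106, 98.6 and 114 CPM in CPP GFP-positive libraries. In GFP-negative cells it had 568, 561 and 598 CPM after AB42, against 1115, 1032 and 1126 CPM after CPP. In both fractions the libraries were fully separated. NEUROD1 was 1.73-fold lower in GFP-positive cells (log2 difference -0.79 ± 0.07; adjusted p = 3.91e-11) and 1.89-fold lower in GFP-negative cells (-0.92 ± 0.06; adjusted p = 5.47e-15), and these effects were not shown to differ (adjusted p = 0.362), although with library totals the difference, 0.36 in log2 units, was called (adjusted p = 0.00082). NEUROD2 (chromosome 12, 14881785 to 14884652), a factor of cortical and cerebellar neuron maturation, had 2.25, 2.53 and 2.61 CPM in AB42 GFP-positive and 4.11, 6.08 and 7.82 CPM in CPP GFP-positive libraries. It was 2.41-fold lower there (adjusted p = 2.28e-05), and 2.06-fold lower in GFP-negative cells, at 24.2, 24.0 and 21.0 CPM after AB42 against 50.04, 45.1 and 47.9 CPM after CPP (adjusted p = 3.03e-09).

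NEUROD6 marks differentiating projection neurons in the mouse cortex. Its copy on chromosome 2 (ENSDARG00000020794) had 3.34, 2.85 and 2.39 CPM in AB42 GFP-positive and 4.50, 5.20 and 7.17 CPM in CPP GFP-positive libraries, and was 1.93-fold lower (adjusted p = 0.000969). Its copy on chromosome 24 (ENSDARG00000040008) had 5.68, 4.90 and 5.76 CPM in AB42 GFP-positive and 8.06, 7.99 and 9.96 CPM in CPP GFP-positive libraries, and was 1.59-fold lower (adjusted p = 0.00191). In GFP-negative cells the chromosome 2 copy had 9.46, 9.80 and 9.39 CPM after AB42 against 15.3, 17.5 and 16.02 CPM after CPP, and the chromosome 24 copy 17.6, 16.4 and 16.5 against 29.0, 27.0 and 30.1 CPM. There both copies were 1.71-fold lower (adjusted p = 6.69e-05 and 1.32e-06). nhlh2, a bHLH factor of early postmitotic neurons, had 10.4, 11.5 and 9.52 CPM in AB42 GFP-negative and 14.0, 13.1 and 14.2 CPM in CPP GFP-negative libraries (adjusted p = 0.0407). Its GFP-positive libraries had 9.43, 8.93 and 7.93 CPM after AB42 and 10.2, 6.24 and 6.80 CPM after CPP (adjusted p = 0.533). The call in GFP-negative cells was lost without AB42 GFP-negative replicate 1 or 3 (adjusted p = 0.092 and 0.117) or CPP GFP-negative replicate 1 or 3 (0.064 and 0.109). NEUROD4 did not pass in either fraction, at 2.99 ± 0.338 CPM in AB42 GFP-positive and 3.505 ± 0.578 CPM in CPP GFP-positive libraries.

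**Figure D3:**
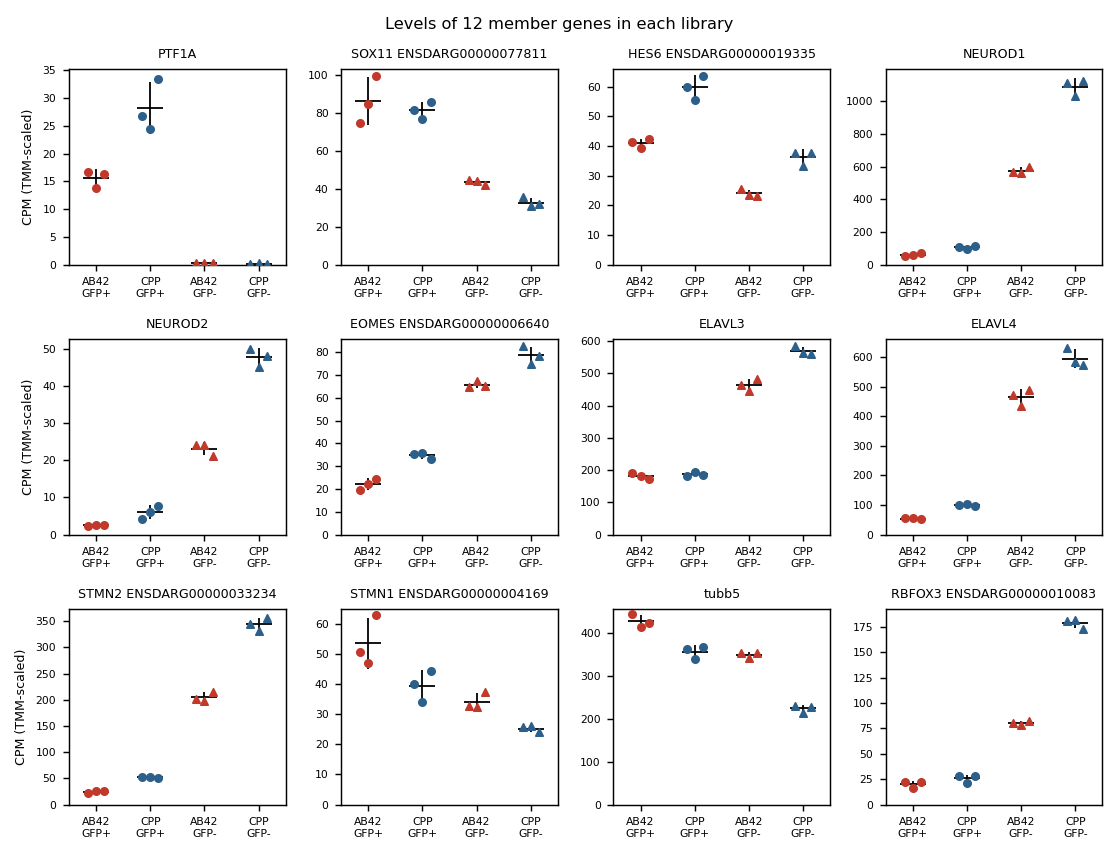
CPM in each of the 12 libraries for 12 of the genes, AB42 beside CPP within each fraction, with dots for GFP-positive and triangles for GFP-negative libraries and black marks for mean ± SD. NEUROD1 lies between 53.7 and 68.7 CPM in AB42 GFP-positive libraries and between 98.6 and 114 CPM in CPP GFP-positive libraries.

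The zinc finger, Sox, Ebf and T-box factors moved in both directions. In GFP-positive cells 4 of the 11 tested (36.4%) were lower and none higher, against 12.5% and 6.21% of all genes. In GFP-negative cells 4 (36.4%) were lower and 2 (18.2%) higher, against 17.3% and 20.9% of all genes. The share that was higher there was near that of all genes. The EOMES copy on chromosome 19 (ENSDARG00000006640), a T-box gene known in mouse to mark intermediate progenitors and young glutamatergic neurons, had 19.4, 22.3 and 24.6 CPM in AB42 GFP-positive libraries, against 35.5, 35.8 and 33.1 CPM in CPP GFP-positive libraries. The libraries did not overlap, and it was 1.58-fold lower (log2 difference -0.66 ± 0.09; adjusted p = 1.21e-06). In GFP-negative cells it had 64.7, 67.4 and 65.1 CPM after AB42 against 82.5, 74.9 and 78.5 CPM after CPP, 1.19-fold lower (-0.26 ± 0.08; adjusted p = 0.00864). The copy on chromosome 16 (ENSDARG00000104243) had 10.8, 10.7 and 12.01 CPM in AB42 GFP-negative and 19.7, 22.4 and 18.4 CPM in CPP GFP-negative libraries, 1.81-fold lower (adjusted p = 5.35e-06). In GFP-positive cells it had 0.835, 0.711 and 0.435 CPM after AB42 against 1.90, 1.44 and 1.68 CPM after CPP, 2.44-fold lower (adjusted p = 0.00495). Those levels rest on few reads, 10, 9 and 4 after AB42 against 24, 18 and 18 after CPP. TBR1, a T-box factor of postmitotic glutamatergic neurons in mouse, had 12.4, 11.8 and 9.67 CPM in AB42 GFP-positive and 14.8, 20.7 and 15.6 CPM in CPP GFP-positive libraries (log2 difference -0.59 ± 0.15; adjusted p = 0.00491), and without CPP GFP-positive replicate 2 the adjusted p was 0.0768. In GFP-negative cells TBR1 had 13.1, 15.9 and 11.5 CPM after AB42 and 13.4, 16.8 and 16.02 CPM after CPP (adjusted p = 0.308).

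SOX11 (ENSDARG00000077811), a SoxC factor of neuronal progenitors and young neurons, rose in GFP-negative cells, where it had 44.7, 43.9 and 41.8 CPM after AB42 against 35.4, 30.6 and 31.7 CPM after CPP. The libraries did not overlap, and the difference was 1.34-fold (log2 0.42 ± 0.09; adjusted p = 0.000301). In GFP-positive cells it had 74.4, 84.4 and 99.3 CPM after AB42 and 81.2, 76.8 and 85.8 CPM after CPP (adjusted p = 0.585). SOX4 (ENSDARG00000004588), its SoxC relative, had 117, 102 and 133 CPM in AB42 GFP-negative and 37.8, 104.5 and 97.5 CPM in CPP GFP-negative libraries. Its call (log2 0.53 ± 0.17; adjusted p = 0.0102) rested on CPP GFP-negative replicate 1, the shallowest library: without it the log2 difference was 0.19 and the adjusted p 0.144. The call was also lost with DESeq2 (adjusted p = 0.226), with library totals (0.0718) and without AB42 GFP-negative replicate 3 (0.0885). In GFP-positive cells SOX4 had 150.5, 133 and 151 CPM after AB42 and 122, 108 and 154 CPM after CPP (adjusted p = 0.515).

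Of the zinc finger and Ebf factors, the MYT1 copy ENSDARG00000102879 had 56.3, 53.1 and 47.9 CPM in AB42 GFP-negative and 74.7, 79.4 and 68.8 CPM in CPP GFP-negative libraries, 1.41-fold lower (adjusted p = 2.19e-05). Its GFP-positive libraries had 15.9, 15.7 and 12.6 CPM after AB42 and 18.3, 15.3 and 15.18 CPM after CPP (adjusted p = 0.512). Myt1 is a repressor that favours neuronal differentiation. The other copy, ENSDARG00000074030, had 6.26, 7.27 and 7.93 CPM in AB42 GFP-positive and 9.01, 9.83 and 10.1 CPM in CPP GFP-positive libraries (log2 -0.44 ± 0.14; adjusted p = 0.0305). Its call there was lost when any of 7 libraries was left out singly, with adjusted p between 0.0601 and 0.167, with library totals (0.0923) and with only the 6 libraries compared (0.11). In GFP-negative cells this copy had 43.0, 34.4 and 38.0 CPM after AB42 and 41.6, 40.1 and 42.5 CPM after CPP (adjusted p = 0.416), a difference called with library totals (adjusted p = 0.0454). EBF3, an Ebf factor of neuronal differentiation, was 1.55-fold lower in GFP-negative cells (adjusted p = 3.19e-07), at 50.8, 49.2 and 48.3 CPM after AB42 against 72.3, 82.0 and 75.2 CPM after CPP. In GFP-positive cells it had 17.0, 23.2 and 21.1 CPM after AB42 and 23.9, 26.9 and 22.5 CPM after CPP (adjusted p = 0.09). That difference was called lower with a replicate block (adjusted p = 0.0481) and without AB42 GFP-positive replicate 2 (0.0345). EBF2 and both INSM1 copies passed in neither fraction. The INSM1 copy on chromosome 20 averaged 12.8 ± 0.701 CPM in AB42 GFP-positive and 10.3 ± 1.28 CPM in CPP GFP-positive libraries (adjusted p = 0.118).

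The RNA-binding genes were lower in GFP-negative cells in 4 of 4 cases, against 17.3% of all genes. In GFP-positive cells 2 of the 4 were lower, against 12.5% of all genes. ELAVL4 (chromosome 8, 15968442 to 16080266), which stabilises neuronal mRNAs, had 55.5, 54.5 and 52.7 CPM in AB42 GFP-positive libraries, against 101, 102 and 95.6 CPM in CPP GFP-positive libraries. Its level in GFP-negative cells was 472, 435 and 489 CPM after AB42, against 631, 582 and 572 CPM after CPP. The libraries were separated in both fractions, and the fall was 1.84-fold in GFP-positive (log2 -0.88 ± 0.06; adjusted p = 4.23e-13) and 1.28-fold in GFP-negative cells (-0.35 ± 0.06; adjusted p = 2.79e-06). The difference of these effects was -0.52 ± 0.09 (adjusted p = 1.19e-05). ELAVL3 (chromosome 3, 48848938 to 48865522), a widely used marker of early postmitotic neurons in zebrafish, had 192, 182 and 171 CPM in AB42 GFP-positive and 183, 195 and 186 CPM in CPP GFP-positive libraries, which overlapped. It was 1.23-fold lower in GFP-negative cells, at 464, 445 and 484 CPM after AB42 against 585, 564 and 560.0 CPM after CPP (adjusted p = 3.08e-05).

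The RBFOX3 copy on chromosome 12 (ENSDARG00000010083), which encodes the neuronal splicing factor NeuN, showed the opposite balance. It had 80.8, 78.5 and 82.5 CPM in AB42 GFP-negative libraries, against 181, 182 and 173 CPM in CPP GFP-negative libraries. No library overlapped, and the gene was 2.22-fold lower (log2 -1.15 ± 0.08; adjusted p = 1.72e-14). In GFP-positive cells, at 22.0, 16.6 and 22.2 CPM after AB42 against 27.8, 21.7 and 27.7 CPM after CPP, the libraries overlapped and the log2 difference was -0.35 ± 0.10 (adjusted p = 0.0149). The call was lost without AB42 GFP-positive replicate 2 (adjusted p = 0.209), CPP GFP-positive replicate 1 (0.103) or replicate 3 (0.073), with library totals (0.0774) and with only the 6 libraries compared (0.0998). The fall was larger in GFP-negative cells, by 0.80 ± 0.13 in log2 units (adjusted p = 1.29e-05). The copy on chromosome 3 was 1.78-fold lower in GFP-negative cells (adjusted p = 0.00115), at 4.01, 4.44 and 3.73 CPM after AB42 against 6.26, 8.67 and 6.78 CPM after CPP, and had 2.00, 2.29 and 1.85 CPM in AB42 GFP-positive and 2.77, 1.92 and 1.58 CPM in CPP GFP-positive libraries (adjusted p = 0.96).

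Among the cytoskeletal and adhesion genes, 2 of 7 tested (28.6%) were higher and 3 (42.9%) lower in each fraction. The shares of all genes were 6.21% higher and 12.5% lower in GFP-positive cells, and 20.9% and 17.3% in GFP-negative cells. The STMN2 copy on chromosome 16 (ENSDARG00000033234) had 22.8, 24.9 and 25.6 CPM in AB42 GFP-positive libraries, against 53.4, 51.8 and 50.9 CPM in CPP GFP-positive libraries. It was 2.13-fold lower, the libraries being fully separated (log2 -1.09 ± 0.08; adjusted p = 9.12e-14). In GFP-negative cells it had 201, 197 and 216 CPM after AB42 against 345, 331 and 355 CPM after CPP, 1.68-fold lower (-0.75 ± 0.06; adjusted p = 7.02e-13). The copy on chromosome 19 (ENSDARG00000070537) had 28.5, 31.6 and 35.3 CPM in AB42 GFP-positive and 48.8, 47.2 and 48.5 CPM in CPP GFP-positive libraries, 1.52-fold lower (adjusted p = 7.86e-07). Its GFP-negative libraries had 130.5, 132 and 151 CPM after AB42 against 159.6, 161 and 166 CPM after CPP, 1.18-fold lower (adjusted p = 0.00715), a call lost without AB42 GFP-negative replicate 1 or 2 (adjusted p = 0.0617 and 0.0515).

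The STMN1 copies differed in direction in GFP-positive cells. The chromosome 16 copy had 1371, 1357 and 1539 CPM in AB42 GFP-positive libraries, against 1741, 1644 and 1878 CPM in CPP GFP-positive libraries, a 1.23-fold fall (adjusted p = 1.46e-05). The chromosome 19 copy had 50.8, 46.9 and 62.9 CPM in AB42 GFP-positive and 40.1, 34.2 and 44.3 CPM in CPP GFP-positive libraries, a 1.35-fold rise (adjusted p = 0.00215). It also rose 1.36-fold in GFP-negative cells (adjusted p = 0.00113), at 32.7, 32.4 and 37.4 CPM after AB42 against 25.7, 26.1 and 23.9 CPM after CPP. There the chromosome 16 copy had 3845, 3914 and 3892 CPM after AB42 and 4169, 3774 and 4184 CPM after CPP (adjusted p = 0.377), a difference called lower with library totals (adjusted p = 7.8e-05) and without CPP GFP-negative replicate 2 (0.0316). 

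tubb5 (chromosome 16, 10428030 to 10436679) had 352, 341 and 352 CPM in AB42 GFP-negative libraries, against 230.2, 214 and 228 CPM in CPP GFP-negative libraries. In GFP-positive cells it had 443, 414 and 423 CPM after AB42 against 361, 338 and 367 CPM after CPP. It was 1.56-fold higher in GFP-negative cells (log2 0.64 ± 0.05; adjusted p = 4.06e-12) and 1.2-fold higher in GFP-positive cells (0.26 ± 0.05; adjusted p = 0.000409), with no overlap in either fraction. The NCAM1 copy on chromosome 15 had 43.9, 41.4 and 42.6 CPM in AB42 GFP-negative and 53.2, 60.0 and 56.9 CPM in CPP GFP-negative libraries, 1.33-fold lower (adjusted p = 8.66e-05). It had 79.4, 83.6 and 78.7 CPM in AB42 GFP-positive and 81.2, 95.7 and 76.3 CPM in CPP GFP-positive libraries (adjusted p = 0.616). The chromosome 21 copy passed in neither fraction.

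The HES6 copy on chromosome 2 (ENSDARG00000019335) had 41.3, 39.3 and 42.3 CPM in AB42 GFP-positive libraries, against 59.8, 55.6 and 63.8 CPM in CPP GFP-positive libraries. GFP-negative libraries had 25.4, 23.6 and 23.2 CPM after AB42, against 37.8, 33.4 and 37.8 CPM after CPP. The libraries were separated in both fractions, and it was 1.46-fold lower in GFP-positive (log2 -0.55 ± 0.09; adjusted p = 1.12e-05) and 1.51-fold lower in GFP-negative cells (-0.60 ± 0.09; adjusted p = 1.55e-06). The chromosome 15 copy stayed under 5 CPM in every group mean and passed in neither comparison.

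The difference of the AB42 effects between fractions was called for 11 of the 34 members, 3 with a higher and 8 with a lower value in GFP-positive minus GFP-negative cells, against 5.46% and 16.5% of all genes. The 3 with a higher value were RBFOX3 on chromosome 12, NCAM1 on chromosome 15 and ELAVL3. Those with a lower value included SOX11, EOMES on chromosome 19, ELAVL4, STMN1 on chromosome 16, both STMN2 copies and tubb5. ELAVL4 and RBFOX3 on chromosome 12 kept their call under every alternative run, and the other 8 named here each lost it under at least 1. With library totals in place of TMM the median difference of all genes moved to 0.15, 8 members were called higher and 1 lower, and all genes split 3248 and 2109 in place of 1105 and 3334. Without CPP GFP-negative replicate 1, 5 members were called higher and 4 lower.

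Genes that act with or against the proneural factors were counted from a list of 37 tested partners and inhibitors, none of them a member. It held E-proteins, Id, her and hey genes, Notch receptors and ligands, MIB1, neuronal repressors and both PAX6 copies. her4.1 and her4.2 are also counted among the radial glia markers below, and both PAX6 copies among the cerebellar granule neuron genes. In GFP-positive cells 5 of the 37 (13.5%) were higher and 6 (16.2%) lower after AB42, against 6.21% and 12.5% of all genes. The median log2 difference was -0.01. In GFP-negative cells 7 of the 37 (18.9%) rose and 9 (24.3%) fell, against 20.9% and 17.3% of all genes. The median there was -0.02, and the share that rose was near that of all genes. SCRT1, a Scratch-family repressor of neurons, had 2.96 ± 0.834 CPM in AB42 GFP-positive and 6.86 ± 1.09 CPM in CPP GFP-positive libraries (adjusted p = 2.79e-06), and 39.5 ± 2.43 CPM in AB42 GFP-negative against 81.0 ± 2.14 CPM in CPP GFP-negative libraries (adjusted p = 2.08e-11). The Notch target her4.2 was 1.21-fold lower in GFP-positive cells and her4.1, the gene whose promoter drives the reporter, 1.2-fold lower (adjusted p = 4.09e-05 and 0.00023). In GFP-negative cells PAX6 ENSDARG00000045936 was 1.62-fold and CBFA2T3 1.81-fold lower (adjusted p = 3.57e-09 and 4.87e-09).

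A second list held 55 tested axon growth and neurite effectors. Of these, 6 (10.9%) were higher and 13 (23.6%) lower in GFP-positive cells after AB42 (median -0.14), against 6.21% and 12.5% of all genes. In GFP-negative cells 8 (14.5%) were higher and 26 (47.3%) lower (median -0.21), against 20.9% and 17.3% of all genes. basp1, a growth cone membrane protein, was 1.51-fold lower in GFP-positive and 1.47-fold lower in GFP-negative cells (adjusted p = 6.2e-09 and 5.04e-10). STMN4 ENSDARG00000030106 was 1.63-fold lower in GFP-positive cells and CNTN1, an axonal adhesion molecule, 2.4-fold lower in GFP-negative cells (adjusted p = 1.09e-10 and 7.2e-15). Of 2 β-tubulin genes among those of smallest p, tubb6 was 3.84-fold higher in GFP-positive cells and tubb4b 1.61-fold higher in GFP-negative cells (adjusted p = 1.15e-06 and 4.35e-16).

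Markers of other cell types also changed after AB42. Over all genes, 6.21% were higher and 12.5% lower in GFP-positive cells, and 20.9% and 17.3% in GFP-negative cells. Of 30 mature neuron markers, 23 were lower and none higher in GFP-positive cells after AB42 (median log2 -0.87), and 25 were lower and none higher in GFP-negative cells (median -0.63). Their summed level was 512 to 537 CPM in AB42 GFP-positive against 918 to 959 CPM in CPP GFP-positive libraries, and 4816 to 4825 CPM in AB42 GFP-negative against 7609 to 7747 CPM in CPP GFP-negative libraries. Of 19 cycling-cell genes, 18 were higher in GFP-positive and 19 in GFP-negative cells, and their sum was 694 to 742 CPM after AB42 against 468 to 499.7 CPM after CPP in GFP-positive libraries, and 392.3 to 407 against 241 to 244 CPM in GFP-negative libraries. Of 15 cerebellar granule neuron genes, 2 were higher and 9 lower in GFP-positive cells and 1 higher and 13 lower in GFP-negative cells, with sums of 447 to 474 CPM in AB42 GFP-positive against 520.0 to 545 CPM in CPP GFP-positive libraries, and 1265 to 1275 against 2218 to 2271 CPM in GFP-negative libraries. Of the 31 matched mature neuron markers, 1 had no read in any AB42 GFP-positive library. Of 13 microglia and leukocyte markers, 3 were lower in GFP-positive and 12 higher in GFP-negative cells after AB42, where they summed to 4774 to 5051 CPM after AB42 against 2001 to 2179 CPM after CPP. In GFP-positive libraries they summed to 602 to 658 CPM after AB42 against 905 to 1011 CPM after CPP. Of 13 oligodendrocyte markers, 6 were lower in GFP-positive and 8 higher in GFP-negative cells, with sums of 18063 to 18726 CPM after AB42 against 14178 to 15453 CPM after CPP in GFP-negative libraries. In GFP-positive libraries their sums were 4286 to 4707 CPM after AB42 against 5833 to 6245 CPM after CPP. The GFP-positive libraries thus also held reads of markers of other cell types, and the source of those reads was not tested. Of 21 radial glia markers, 4 were higher and 10 lower in GFP-positive cells and 7 higher and 3 lower in GFP-negative cells. Of 4 tested pituitary and pineal markers, 2 were lower in each fraction and 1 higher in GFP-negative cells. The part of these cell types in the members' differences was not tested.

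**Figure D4:**
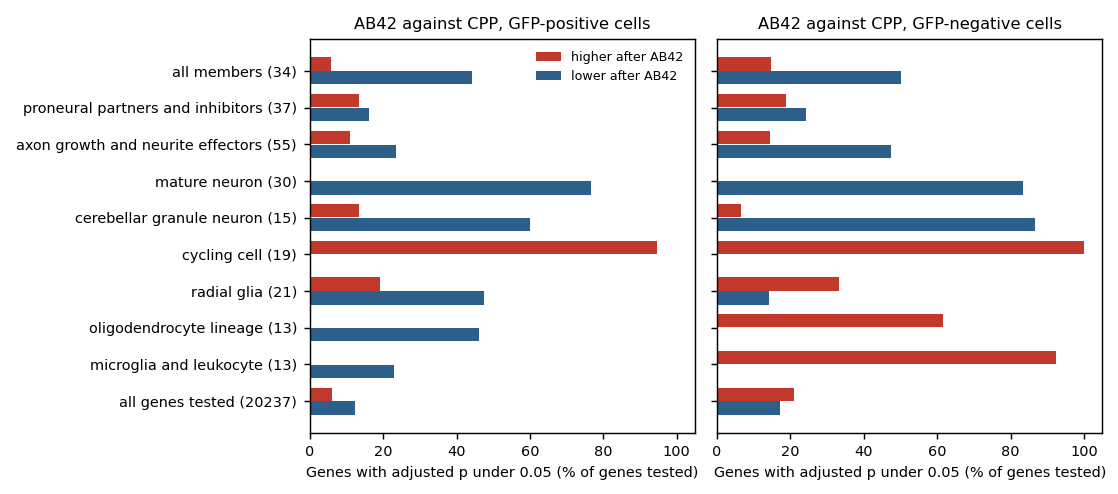
Percent of tested genes called higher (red) or lower (blue) after AB42 in each fraction, for the proneural and newborn neuron genes, the other gene lists and all genes tested. The members' bars stand at 44.1% lower in GFP-positive and 50% lower in GFP-negative cells.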

How the data were processed

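RNA was measured in 12 libraries, 4 groups of 3, from poly-dT primed, amplified cDNA sequenced as single 75-base reads per the labels' protocols. The authors deposited raw whole-number counts per Ensembl gene. The submitters' processing notes name BWA 0.7.12, featureCounts and the builds GRCz10 and danRer10. No strand setting, annotation release, featureCounts version or filter was found (not given in the sources used here). Coordinates and exon lengths are those the deposited table gives (the authors' length in bases per gene), taken as GRCz10. Reads carry no molecular identifiers, so duplicates of amplification count as separate reads.

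Gene symbols came from a name table that covers 26121 of the 31953 genes. Counts were analysed in R 4.3.3 with edgeR 4.0.16 (limma 3.58.1): filterByExpr, TMM scaling, 4 group means, the quasi-likelihood F test with 8 residual degrees of freedom and Benjamini-Hochberg adjustment over 20237 genes within each comparison. That test shares information on the spread across genes, so its p-values rest on more than 8 degrees of freedom. Log2 differences have a prior count of 0.125, and the SE was taken from the difference and its F value. The procedure was tested on simulated counts for AB42 against CPP in GFP-positive cells over 20237 genes, in which edgeR recovered 45% of 100 genes changed 1.5-fold and 78% of 100 changed 2-fold. The simulated libraries were all drawn from the same mean profile, without a difference between fractions, and few genes were changed. The recovery therefore does not give the power for the members in the real data. Library values were given for members with a group mean of at least 5 CPM that were called in an AB42 comparison or in the difference of the effects, and for the 5 largest differences between fractions. Other members were summarised. For the other lists the genes of smallest p were named. Alternatives were other scalings (RLE, library totals), no filter and a stricter filter, DESeq2 1.42.0, a replicate block, only the 6 libraries compared, leaving out each library, and exact symbol matches. The members and lists were chosen with earlier results of these data known. Some members are counted in the totals but not reported here by name.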

Additional observations from a re-analysis of the deposited data

Results flagged for a closer look

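In the main fit the AB42 effect differed between fractions for 10 of the genes described here, by edgeR's test of the difference itself. Values are log2, the effect in GFP-positive minus that in GFP-negative cells. Of all genes tested, 5.46% were called with a higher and 16.5% with a lower value. Some further members, among them EBF3 and MYT1 ENSDARG00000102879, were called only under some alternatives, as given below. The largest difference of the 10 was that of RBFOX3 on chromosome 12, at 0.80 (adjusted p = 1.29e-05). RBFOX3 had a smaller fall in GFP-positive cells and kept its call under every alternative run. NCAM1 on chromosome 15 differed by 0.35 (adjusted p = 0.0247) and ELAVL3 by 0.24 (adjusted p = 0.0218), both called lower in GFP-negative cells. The NCAM1 call was lost without AB42 GFP-positive replicate 2 (adjusted p = 0.0686), CPP GFP-positive replicate 1 (0.0654) or 3 (0.082) or AB42 GFP-negative replicate 2 (0.0619). That of ELAVL3 was lost without AB42 GFP-positive replicate 1 (0.0847), CPP GFP-positive replicate 1 (0.0631) or AB42 GFP-negative replicate 2 (0.0771).

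ELAVL4 differed by -0.52 (adjusted p = 1.19e-05), with the larger fall in GFP-positive cells, and kept its call under every alternative run. STMN2 on chromosome 16 differed by -0.34 and STMN2 on chromosome 19 by -0.37 (adjusted p = 0.00781 and 0.0106). With library totals these were -0.11 and -0.14 (adjusted p = 0.352 and 0.31). Both calls were also lost without AB42 GFP-negative replicate 3 (0.108 and 0.153), CPP GFP-negative replicate 1 (0.0564 and 0.0731) or CPP GFP-negative replicate 2 (0.0779 and 0.0636), and that of the chromosome 19 copy without AB42 GFP-positive replicate 1 (0.0676).

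EOMES on chromosome 19 differed by -0.41 and STMN1 on chromosome 16 by -0.25 (adjusted p = 0.0133 and 0.0084). The EOMES call was lost with library totals (-0.18; adjusted p = 0.292) and without AB42 GFP-positive replicate 1 (0.0789), AB42 GFP-negative replicate 3 (0.0659) or CPP GFP-negative replicate 2 (0.0931). That of STMN1 was lost with library totals (-0.016; adjusted p = 0.855), with DESeq2 (0.0794) and without AB42 GFP-negative replicate 3 (0.101) or CPP GFP-negative replicate 1 (0.0529) or 2 (0.197). For tubb5 the difference was -0.38 and for SOX11 ENSDARG00000077811 -0.34 (adjusted p = 0.00029 and 0.0449). tubb5 rose in both fractions, more in GFP-negative cells, and its call was lost with library totals (-0.14; adjusted p = 0.11). SOX11 rose in GFP-negative cells and was not called in GFP-positive cells (adjusted p = 0.585). Its call was lost with RLE factors (adjusted p = 0.0788), library totals (0.525) and DESeq2 (0.0995), and without any 1 of 10 of the 12 libraries (0.0694 to 0.233).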

How the results depend on the processing

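Of 170 pairs of a tested member and a comparison, 109 were called and 61 were not. Alternatives of single members were computed for the 109 and for 28 uncalled pairs (named members in the comparisons of AB42), not for the other 33. Of the 109, 88 kept their call and direction under every alternative that could be fitted. None of the 109 turned direction. Keeping exact symbol matches only leaves fewer genes by construction: 1 member was then higher and 5 lower in GFP-positive cells after AB42, 2 and 6 in GFP-negative cells, 8 higher and 4 lower in GFP-positive against GFP-negative cells after AB42, 8 and 5 after CPP, and 1 higher and 3 lower in the difference of the effects. The median between fractions then turned to 0.53 after AB42 and 0.69 after CPP, in place of -0.31 and -0.63. With no filter on low counts, 38 members were tested and the median after AB42 was -1.14. With library totals 4 members were higher in GFP-positive cells after AB42, and the difference was called higher for 8 and lower for 1. The difference was called higher for 5 members with RLE factors and for 5 with DESeq2. These included EBF3 (adjusted p = 0.0313 and 0.0281) and MYT1 ENSDARG00000102879 (0.0446 and 0.0452), which the main fit did not call. Both were also called with library totals (0.00241 and 0.00468), with the replicate block (0.0271 and 0.0303) and without some single libraries. nhlh2, uncalled in the main fit, was called with library totals (0.0116) and the replicate block (0.0498). It was also called without CPP GFP-positive replicate 1 (0.00774) or CPP GFP-negative replicate 2 (0.045). RBFOX3 ENSDARG00000074310 was called higher with library totals (0.0285) and without CPP GFP-positive replicate 1 (0.0397). SOX4 ENSDARG00000004588 was called lower with no filter (log2 -0.37, adjusted p = 0.00173), and PTF1A lower without CPP GFP-positive replicate 2 (0.0491). The main fit called none of these. The cause was not tested. Without the members whose exons overlap another gene, an alternative chosen after seeing the data, 3 were higher in GFP-negative cells.

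Leaving out 1 library at a time gave 2 to 3 members higher and 13 to 15 lower in GFP-positive cells, and 4 to 5 higher and 15 to 18 lower in GFP-negative cells. For GFP-positive against GFP-negative cells it gave 12 to 13 higher and 16 to 17 lower after AB42, and 12 to 13 higher and 17 to 19 lower after CPP. For the difference it gave 1 to 5 higher and 2 to 9 lower; 2 were lower without AB42 GFP-negative replicate 3, 3 without CPP GFP-negative replicate 2, 4 without CPP GFP-negative replicate 1 and 5 without AB42 GFP-positive replicate 1, while 1 was higher without AB42 GFP-negative replicate 2 and 5 without CPP GFP-negative replicate 1 or 2. Over all genes the calls ranged 2871 to 3847, 6708 to 7934, 14340 to 15185, 14291 to 15022 and 3839 to 4382 in the order of those comparisons.

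Replicate numbers are shared between groups. Of 18 same-numbered pairs none had deviations correlated over 0.1 (range -0.021 to 0.092), and 7 of 12 libraries correlated best with their own number. The pairs numbered 3 all lay between 0.06 and 0.092. These values do not settle whether libraries that share a number were paired. The labels do not state a pairing, and the main fit used none. With the replicate block, 3 members were higher and 18 lower in GFP-positive cells, 5 and 17 in GFP-negative cells, 13 and 16 between fractions after AB42, 13 and 18 after CPP, and 6 and 8 in the difference. Over all genes the block gave 4356 calls in GFP-positive and 8236 in GFP-negative cells, in place of 3779 and 7733.

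Directions that turned belonged to 8 of the 28 uncalled pairs. In GFP-positive cells after AB42, library totals gave 0.044 for ELAVL3, 0.025 for NCAM1 ENSDARG00000007220 and 0.065 for RBFOX3 ENSDARG00000074310. With only the 6 libraries compared RBFOX3 ENSDARG00000074310 was 0.013. Without single libraries it ranged from -0.18 to 0.23, NCAM1 ENSDARG00000007220 from -0.13 to 0.033 and SOX11 ENSDARG00000077811 from -0.029 to 0.18. In the difference, library totals gave 0.0048 for NEUROD2, 0.058 for NEUROD6 ENSDARG00000020794 and 0.23 for STMN1 ENSDARG00000004169, which was 0.032 with RLE factors and 0.033 with DESeq2. Without single libraries STMN1 ENSDARG00000004169 ranged from -0.13 to 0.14, NEUROD6 ENSDARG00000020794 from -0.31 to 0.027 and SOX4 ENSDARG00000004588 from -0.52 to 0.036. Members near the floor of 3 reads, such as neurog1 and PTF1A in GFP-negative cells, are limited by depth.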
